A study of Mus musculus with 15 samples.

Results

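Epiblast-like cells (EpiLCs) were compared with the naive embryonic stem cells (ESCs) they came from, over all genes measured. The comparison used the 3 EpiLC and the 3 ESC libraries, 6 of the 15 RNA-seq samples of the series, chosen by their labels, and 18090 of the 55536 genes in the count table passed the filter on low counts and were tested. The other 9 samples are primordial germ cell-like cells (PGCLCs) sorted as Stella-eGFP+ on days 2, 4 and 6 of their induction, and they enter here as a source of spread and as later levels. ESCs are cultured cells that can form all tissues of the embryo, and EpiLCs are the intermediate made from them before germ cell induction.

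Both groups were the same mouse line, a clone of Stella-eGFP reporter ESCs that carries rtTAM2 and doxycycline-inducible *Prdm1*, *Prdm14*, *Tfap2c* and *Nanog*, so that a result may belong to this clone. The study describes its engineered ESCs as male. Doxycycline (2 µg/ml) was added only at PGCLC induction. The transgenes and the endogenous copies of these 4 genes are counted together. ESCs were kept in 1 µM PD0325901, which inhibits MEK, 3 µM CHIR99021, which inhibits GSK3, and 1000 U/ml LIF, on poly-ornithine and laminin. EpiLCs had spent 48 h in 20 ng/ml activin A, 12 ng/ml bFGF and 1% knockout serum replacement, on fibronectin. The groups thus differ in the inhibitors, the cytokines, the medium and the substrate at once, and the effects of these cannot be told apart. The labels do not say that replicates were separate cultures, so p-values measure the spread between these samples.

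Naive pluripotency is the state of the preimplantation epiblast, in which LIF signalling through STAT3 and a circuit of transcription factors hold the cells, while FGF signalling through ERK drives them out of it. The formative state that follows is that of the epiblast just after implantation. It is known for high *de novo* DNA methyltransferases, for OCT4 without the naive factors, and for the ability to become germ cells when given the right signals. GSK3 inhibition stabilises β-catenin, which switches on the targets of the TCF/LEF factors, and activin acts through SMAD2 and SMAD3 like its relative Nodal.

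In EpiLCs, 2603 genes were higher (14.4% of those tested) and 2145 lower (11.9%) than in ESCs, with an adjusted p under 0.05 and more than a 2-fold difference. The 3 EpiLC values lay wholly above or below the 3 ESC values for 11487 genes (63.5%), among them 4648 of the 4748 called. Above 4-fold there were 1614 genes higher and 976 lower, and above 16-fold 561 higher and 224 lower. Genes called higher held between 2.22% and 2.27% of the expression of tested genes in ESCs and between 7.07% and 7.31% in EpiLCs. For genes called lower the share was between 6.16% and 6.18% in ESCs and between 1.75% and 1.78% in EpiLCs. The median log2 fold change over all tested genes was -0.01. Levels below are CPM after TMM normalization, given in the order of the replicates. Fold changes are log2 values of EpiLCs over ESCs. Their standard error (SE) is the absolute log2 fold change divided by the square root of the test's F statistic. The fit used all 15 samples, so the SE also carries the spread of the PGCLC libraries and is not that of the 6 libraries alone. A gene is called higher or lower by the rule above, with p-values from edgeR's quasi-likelihood test, Benjamini-Hochberg adjusted over the 18090 genes. Gene lists were not tested as sets. For a list, the number of its members called in each direction is given, to be read against 14.4% higher and 11.9% lower over all tested genes.

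Libraries held between 22555021 and 29790085 counts in ESCs and between 27839735 and 32594579 in EpiLCs, with 21103 to 22117 and 22073 to 22468 genes detected. Mitochondrial genes took 1.65% to 2.10% of counts in ESCs and 1.28% to 1.66% in EpiLCs. Replicates were distinct libraries, since the chi-square per gene was 8.82 to 17.3 between ESC libraries and 9.73 to 22.3 between EpiLC libraries. D6PGCLC replicate 1, with 18061 genes detected, stood apart. It enters the estimate of the spread and the day 6 means given for later samples. Without it 2818 genes were higher and 2326 lower. The samples are bulk RNA, in which fewer cells of a type and less RNA per cell cannot be told apart.

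**Figure D1:**
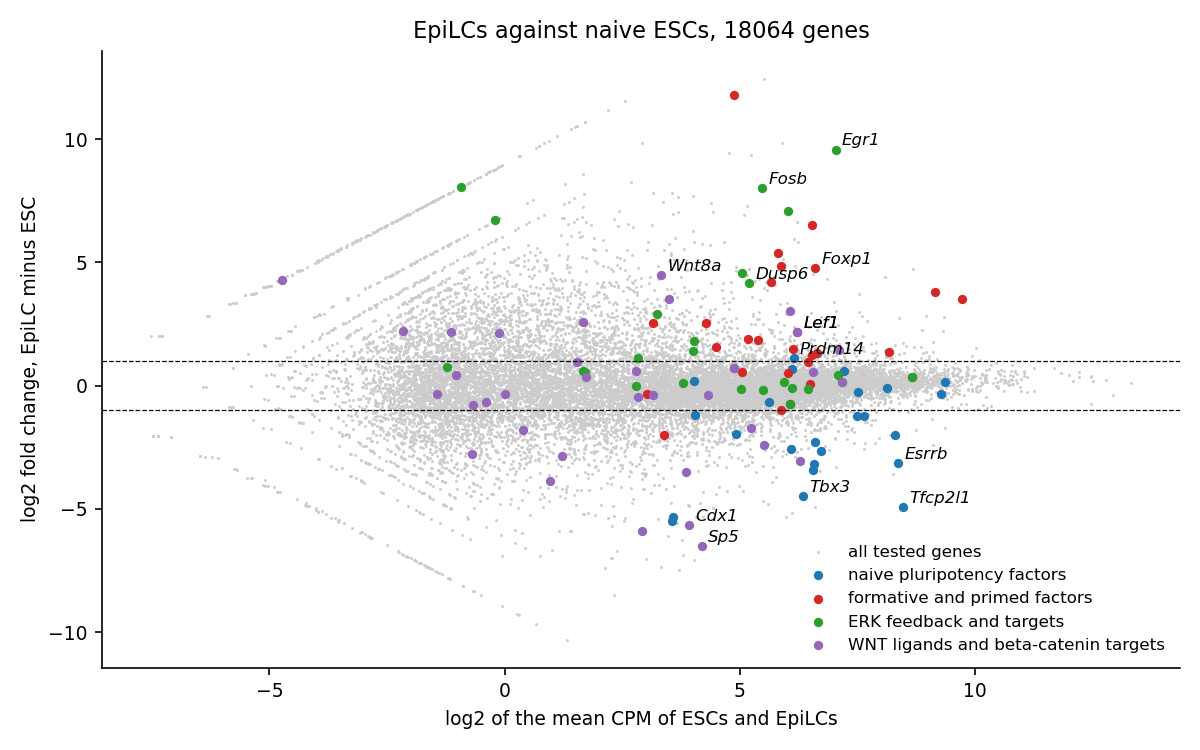
Log2 fold change of EpiLCs over ESCs (y axis) against the log2 mean CPM of both groups (x axis) for the 18064 tested genes with a count in these 6 libraries, as grey points, with members of 4 gene lists in colour and dashed lines at log2 fold changes of 1 and -1. Most naive factors lie below the lower line and most formative factors above the upper one, ERK targets such as *Egr1* (9.58) reach far above, and *Sp5* (-6.51) is the lowest of the WNT list.

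Most factors of the naive circuit fell. Of the 24 tested, 15 were lower and 1 was higher, with a median log2 fold change of -1.61 against -0.01 over all genes. *Tfcp2l1*, a factor that links LIF to the naive circuit, was at 655, 703 and 696 CPM in ESCs and at 19.8, 25.0 and 22.5 CPM in EpiLCs (log2 fold change -4.93, SE 0.15, adjusted p = 1.02e-14). *Esrrb*, an orphan nuclear receptor of the same circuit, was at 587, 583 and 600 CPM and then at 61.7, 70.5 and 68.4 CPM (-3.14, SE 0.08, adjusted p = 2.17e-15). *Tbx3* was at 156, 150 and 159 CPM and then at 6.20, 7.50 and 7.27 CPM (-4.47, SE 0.11, adjusted p = 1.22e-15). The groups were far apart for all 3 genes. *Zfp42*, the classical marker REX1, fell less, from 502 ± 6.87 CPM (SD, n = 3) to 124 ± 6.19 CPM (-2.01), and *Klf2* from 279 ± 21.7 to 120 ± 13.7 CPM (-1.21).

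Not every naive factor passed the fold limit. *Nanog*, which is also a transgene here, was at 689, 698 and 686 CPM in ESCs and at 462, 582 and 583 CPM in EpiLCs, a log2 fold change of -0.35 (SE 0.11). *Nr0b1*, a repressor bound by OCT4, stood at 60.2 ± 2.55 and 37.8 ± 1.57 CPM (-0.67). The member that rose was *Prdm14*, also a transgene, at 46.2, 46.4 and 41.9 CPM in ESCs and 78.7, 106 and 105 CPM in EpiLCs (1.11, SE 0.11). Of the other transgenes, *Prdm1* rose from 10.9 ± 0.465 to 71.6 ± 10.9 CPM (2.72), and *Tfap2c* was at 39.6 ± 1.95 and 56.1 ± 3.54 CPM (0.50), short of the fold limit. Of the 14 tested factors shared by both states, 2 were called higher and 12 were not called. *Pou5f1*, which encodes OCT4, was at 1091, 975 and 1012 CPM in ESCs and at 974, 888 and 962 CPM in EpiLCs (-0.12, adjusted p = 0.247), and *Sox2*, its partner, at 287 ± 3.43 and 271 ± 22.5 CPM. *Utf1* rose by 1.55 and *Lin28a*, which blocks maturation of let-7 miRNAs, by 1.73.

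**Figure D2:**
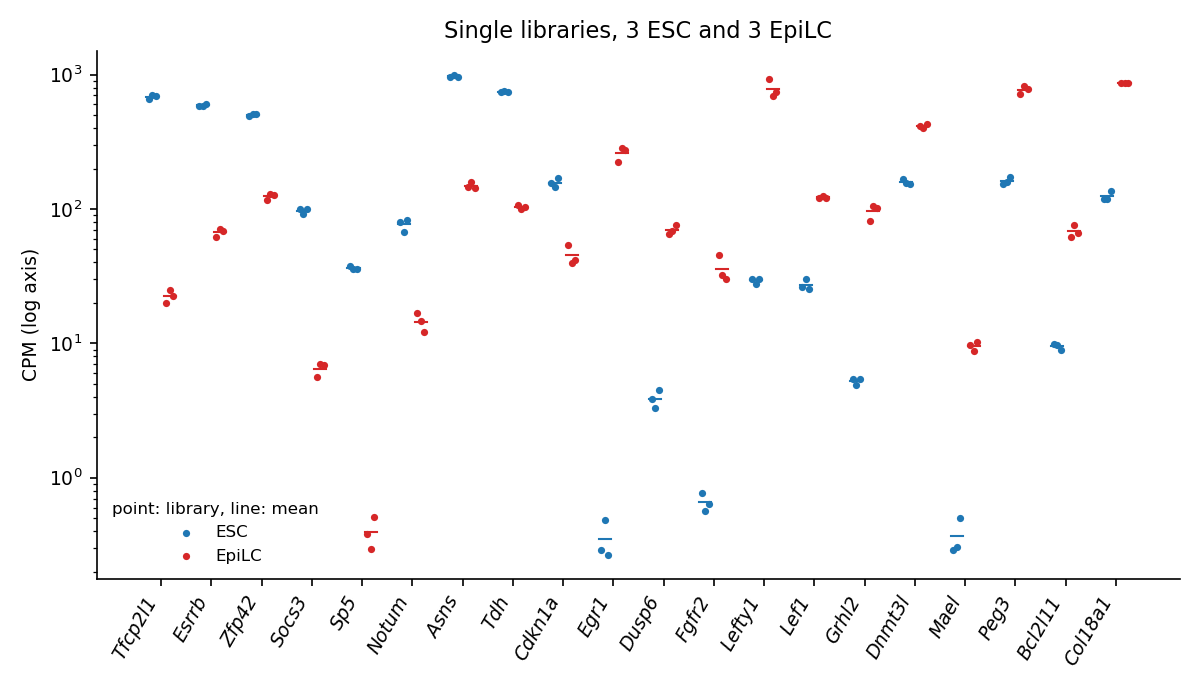
CPM on a log axis of 20 genes named in the text in each of the 3 ESC libraries (blue) and the 3 EpiLC libraries (red), with a line at each group's mean. The groups do not overlap for any of the 20, and the spread between replicates is small beside the distance between groups, as for *Tfcp2l1* (655 to 703 CPM against 19.8 to 25.0 CPM).

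Several genes of the LIF pathway fell. LIF binds the receptor pair LIFR and gp130 and acts through STAT3, whose targets include its own inhibitor *Socs3*. Of 21 tested members 8 were lower (38.1%, against 11.9% of all tested genes) and 2 higher (9.52%, against 14.4%), with a median of -0.27. At the receptor, *Lifr* fell from 57.4 ± 3.94 to 20.4 ± 2.76 CPM (-1.49), and *Il6st*, which encodes gp130, from 93.6 ± 1.89 to 42.3 ± 7.21 CPM (-1.15). The *Il6st* value was -0.996 without EpiLC replicate 1 and no longer passed the fold limit. *Stat3* itself was at 165, 154 and 167 CPM and then at 30.5, 35.5 and 33.4 CPM (-2.29, SE 0.09, adjusted p = 3.76e-13). Among targets, *Socs3* was at 99.4, 92.5 and 99.4 CPM and then at 5.62, 6.97 and 6.86 CPM (-3.90, SE 0.42), and *Bcl3* fell by 5.34 on the log2 scale. All 4 of *Lifr*, *Il6st*, *Stat3* and *Socs3* had groups that did not overlap. *Pim2*, a survival kinase, went the other way, at 8.94, 8.72 and 9.72 CPM in ESCs and 340, 307 and 291 CPM in EpiLCs (5.10, SE 0.16, adjusted p = 1.30e-14).

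WNT ligands and β-catenin targets moved in both directions. Of 35 tested, 11 were lower (31.4%, against 11.9% of all tested genes) and 8 higher (22.9%, against 14.4%), with a median of -0.35. *Sp5*, a direct target that represses other WNT targets, was at 37.4, 35.9 and 35.6 CPM in ESCs and at 0.383, 0.296 and 0.514 CPM in EpiLCs (-6.51, SE 0.39, adjusted p = 8.02e-11). *Notum*, a secreted enzyme that inactivates WNT ligands, was at 79.5, 67.4 and 83.3 CPM and then at 16.8, 14.6 and 12.2 CPM (-2.40, SE 0.24). The ligand *Wnt5b* was at 25.4, 24.7 and 29.3 CPM and then at 2.79, 2.17 and 2.02 CPM (-3.51, SE 0.24). For these 3 genes every EpiLC value was below every ESC value. In contrast, the receptor *Fzd7* rose from 14.4 ± 1.85 to 119 ± 2.29 CPM (3.05, SE 0.11), the ligand *Wnt8a* from 0.838 ± 0.246 to 19.2 ± 5.62 CPM (4.50, SE 0.43), and *Lef1*, a DNA-binding partner of β-catenin, from 27.4 ± 2.65 to 122 ± 2.62 CPM (2.16, SE 0.38).

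Promoters of the WNT list were searched for the motif of TCF/LEF factors, spelled CTTTGAT or, on the other strand, ATCAAAG. Promoters are RefSeq windows of 300 bases (250 before and 50 after a start, GRCm38.p6), and a gene counts where any of its promoters holds the motif. It was in 4 of the 24 list genes with a promoter in the table, 16.7%, against 4.29% of all 27025 genes. By call, it was in 3 of 8 genes that fell (*Sp5*, *Wnt5b* and *Wnt11*), 0 of 5 that rose and 1 of 11 that were not called (*Tnfrsf19*). The promoters of the 2 with the most expression in ESCs among those that fell follow, with the motif in capitals, *Sp5* at chr2:70474673-70474972 on the forward strand and *Wnt5b* at chr6:119449337-119449636 on the reverse strand. A match describes the sequence and is not evidence of binding.
Sp5: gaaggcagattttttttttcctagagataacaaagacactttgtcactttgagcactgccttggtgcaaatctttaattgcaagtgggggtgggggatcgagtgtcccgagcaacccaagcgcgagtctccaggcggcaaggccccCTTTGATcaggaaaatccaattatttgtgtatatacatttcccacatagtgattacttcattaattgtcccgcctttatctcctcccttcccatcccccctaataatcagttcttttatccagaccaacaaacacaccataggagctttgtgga
Wnt5b: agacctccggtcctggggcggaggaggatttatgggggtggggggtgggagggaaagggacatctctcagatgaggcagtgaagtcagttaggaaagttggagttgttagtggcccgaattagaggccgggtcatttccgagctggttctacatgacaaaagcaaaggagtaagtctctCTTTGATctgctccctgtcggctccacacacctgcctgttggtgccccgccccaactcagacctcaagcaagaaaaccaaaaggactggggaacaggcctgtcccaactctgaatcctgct

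Many ERK feedback genes and targets rose. ERK, the kinase below MEK, switches on immediate early genes such as *Egr1* and *Fos* within minutes and the DUSP phosphatases that then dampen it. Of 26 tested, 11 were higher and the other 15 were not called, with a median of 0.65. *Egr1* was at 0.292, 0.482 and 0.268 CPM in ESCs, from 8, 11 and 8 counts, and at 223, 287 and 276 CPM in EpiLCs (9.58, SE 0.36, adjusted p = 1.73e-13). *Fos* was at 1.28, 1.10 and 0.536 CPM and then at 107, 147 and 134 CPM (7.07, SE 0.27), and its relative in the FOS family, *Fosb*, rose by 8.02 (SE 0.45). The distance between the groups was many times the spread within either. *Egr2* had 0 counts in every ESC library and 15, 36 and 38 counts in EpiLCs, at least 7.99-fold higher, and DESeq2 gave it no call.

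Phosphatase genes rose as well. *Dusp6*, which removes phosphate from ERK in the cytoplasm, was at 3.87, 3.29 and 4.49 CPM and then at 64.7, 68.8 and 75.5 CPM (4.15, SE 0.11, adjusted p = 2.17e-15). The nuclear phosphatases *Dusp4* and *Dusp5* rose by 4.56 (SE 0.17) and 2.92 (SE 0.19), with groups apart. Other feedback genes of the same list were not called. *Spry2* stood at 72.1 ± 2.86 and 67.0 ± 5.41 CPM, *Spry4* at 33.7 ± 3.21 and 31.0 ± 3.39 CPM, and the ETS factor *Etv5* at 356 ± 16.3 and 454 ± 27.5 CPM (0.35). *Etv4* had a log2 fold change of -0.75 (SE 0.15), whereas *Spry1* rose by 1.39 (SE 0.13). The ERK list thus held members with overlapping groups beside members far apart.

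The CArG box, which serum response factor binds in immediate early genes, was in the promoters of 2 of 16 genes of the ERK list with an entry, 12.5%, against 1.81% of all genes. These were *Egr2* and *Dusp5*. The list held 26 genes, and those without a promoter entry were not searched. Sites outside the promoter window were not searched either. The result thus does not show that *Egr1*, *Fos* or *Fosb* lacks a CArG box. The motif is named rather than spelled, and it reads the same on both strands. The *Dusp5* promoter at chr19:53528895-53529194, on the forward strand, held it 2 times, in capitals here.
Dusp5: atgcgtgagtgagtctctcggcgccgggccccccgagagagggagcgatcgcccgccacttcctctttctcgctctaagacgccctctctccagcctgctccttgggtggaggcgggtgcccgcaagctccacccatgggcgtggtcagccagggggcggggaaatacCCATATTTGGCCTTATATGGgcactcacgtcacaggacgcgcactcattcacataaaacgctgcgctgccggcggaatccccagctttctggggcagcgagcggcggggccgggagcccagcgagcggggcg

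Among FGF ligands and receptors, 5 of 16 tested were higher (31.25%) and 3 lower (18.75%), with a median of 0.09. The shares over all tested genes were 14.4% and 11.9%. *Fgfr1*, the main FGF receptor of ESCs, was at 114, 112 and 109 CPM in ESCs and 114, 112 and 102 CPM in EpiLCs, with overlapping groups. *Fgfr2* was at 0.766, 0.570 and 0.637 CPM and then at 45.3, 32.5 and 30.4 CPM (5.76, SE 0.21, adjusted p = 6.69e-14). *Fgf4*, the ligand that ESCs make themselves, was at 199 ± 4.27 and 165 ± 28.4 CPM (-0.27, adjusted p = 0.103). Of the other ligands, *Fgf15* rose from 1.65 ± 0.268 to 26.3 ± 3.92 CPM (3.99) and *Fgf10* fell from 21.9 ± 3.20 to 0.319 ± 0.209 CPM (-6.11).

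Of 21 tested genes of the Nodal and activin pathway, 2 were higher (9.52%) and 4 lower (19.05%), with a median of -0.15. *Lefty1*, an inhibitor of Nodal that the pathway itself switches on, was at 30.1, 27.9 and 30.1 CPM and then at 932, 691 and 739 CPM (4.74, SE 0.17, adjusted p = 5.45e-14). *Lefty2*, its neighbour and relative, was at 393, 383 and 371 CPM and then at 428, 303 and 284 CPM (-0.18, SE 0.13), with overlapping groups. Whether these neighbours differed in their change was not tested. *Skil*, which encodes the SMAD repressor SnoN, rose from 86.4 ± 5.89 to 583 ± 45.6 CPM (2.75), *Nodal* itself stood at 53.5 ± 2.13 and 89.0 ± 0.522 CPM (0.73, under the fold limit), and *Pcsk6*, a convertase that cuts the Nodal precursor, fell by 3.11. In the related BMP pathway 3 of 20 tested were higher (15.0%) and 4 lower (20.0%), against 14.4% and 11.9% over all tested genes. Among them *Bmp4* fell from 27.2 ± 2.86 to 6.91 ± 1.75 CPM (-1.97), and *Id2* rose from 1.31, 0.964 and 1.24 CPM to 12.4, 10.8 and 9.39 CPM (3.20).

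Most formative and primed factors rose, with 18 of 27 tested called higher and 1 lower (2 without ESC replicate 2 or EpiLC replicate 1) and a median of 1.59. *Foxp1* was at 6.60, 7.89 and 6.16 CPM and then at 189, 191 and 183 CPM (4.77, SE 0.13, adjusted p = 2.17e-15). *Sox4* was at 4.01, 4.82 and 2.91 CPM and then at 104, 113 and 123 CPM (4.87, SE 0.17). *Grhl2*, an opener of epithelial enhancers, was at 5.40, 4.87 and 5.43 CPM and then at 81.8, 105 and 102 CPM (4.20, SE 0.18). The groups were far apart for all 3. The zinc finger genes *Zic2* and *Zic5* were also called higher, *Zic2* from 55.3 ± 4.04 to 130 ± 1.89 CPM (1.24). *Sall3*, the member that fell, was at 16.8 ± 1.76 CPM and then at 4.16 ± 1.41 CPM (-2.01). Whether counting used strand is not given in the sources used here, so reads of overlapping genes may be counted together. Of the tested genes named here, at least 10% of the exonic bases overlap a gene on the other strand in *Sox4*, *Sycp3*, *Notum*, *Cdkn1c*, *Fgf15*, *Bak1*, *Spry1*, *Dusp5*, *Dll1*, *Bad*, *Bid*, *Pou5f1*, *Xist*, *Lef1* and *Cd9*, and on the same strand in *Spp1* and *Bax*. Shorter overlaps are not listed.

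Among DNA methylation genes, 5 of 22 tested were higher (22.7%) and 2 lower (9.09%), with a median of 0.26. The *de novo* enzymes led. *Dnmt3b* reached 1558 ± 62.7 CPM and *Dnmt3a* 1057 ± 58.9 CPM in EpiLCs. Per length, *Dnmt3b* stood at 305 RPKM, *Dnmt3l* at 138 RPKM and *Dnmt3a* at 63.5 RPKM. The length is that of all annotated exons of a gene together, 5106 bases for *Dnmt3b* and 16642 for *Dnmt3a*. Single transcripts can be shorter, so the order may depend on this choice. *Dnmt3l*, their cofactor without enzyme activity, was at 168, 156 and 154 CPM in ESCs and at 413, 398 and 430 CPM in EpiLCs (1.38, SE 0.25). The maintenance enzyme *Dnmt1* was at 412 ± 21.5 and 398 ± 20.9 CPM (-0.05), and its guide *Uhrf1* at 744 ± 38.8 and 530 ± 27.5 CPM (-0.49), neither past the fold limit. On the removal side, *Tet1* was at 375, 410 and 379 CPM and at 338, 437 and 389 CPM, with overlapping groups, whereas *Tet2* was at 162, 189 and 193 CPM and then at 23.7, 32.5 and 29.9 CPM (-2.66, SE 0.19, adjusted p = 7.16e-10). Whether the TET genes differed in their change was not tested. *Zfp57*, which protects methylation at imprinted loci, fell from 393 ± 9.72 to 77.3 ± 10.9 CPM (-2.34, SE 0.10). Of 36 polycomb and H3K9 methylation genes tested, 4 rose, such as *Jarid2* (1.14), and 4 fell, such as *Bmi1* (-1.19), with a median of -0.06 (7 fell with library size alone as the scaling). These counts are 11.1% in each direction, against 14.4% higher and 11.9% lower over all tested genes.

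**Figure D3:**
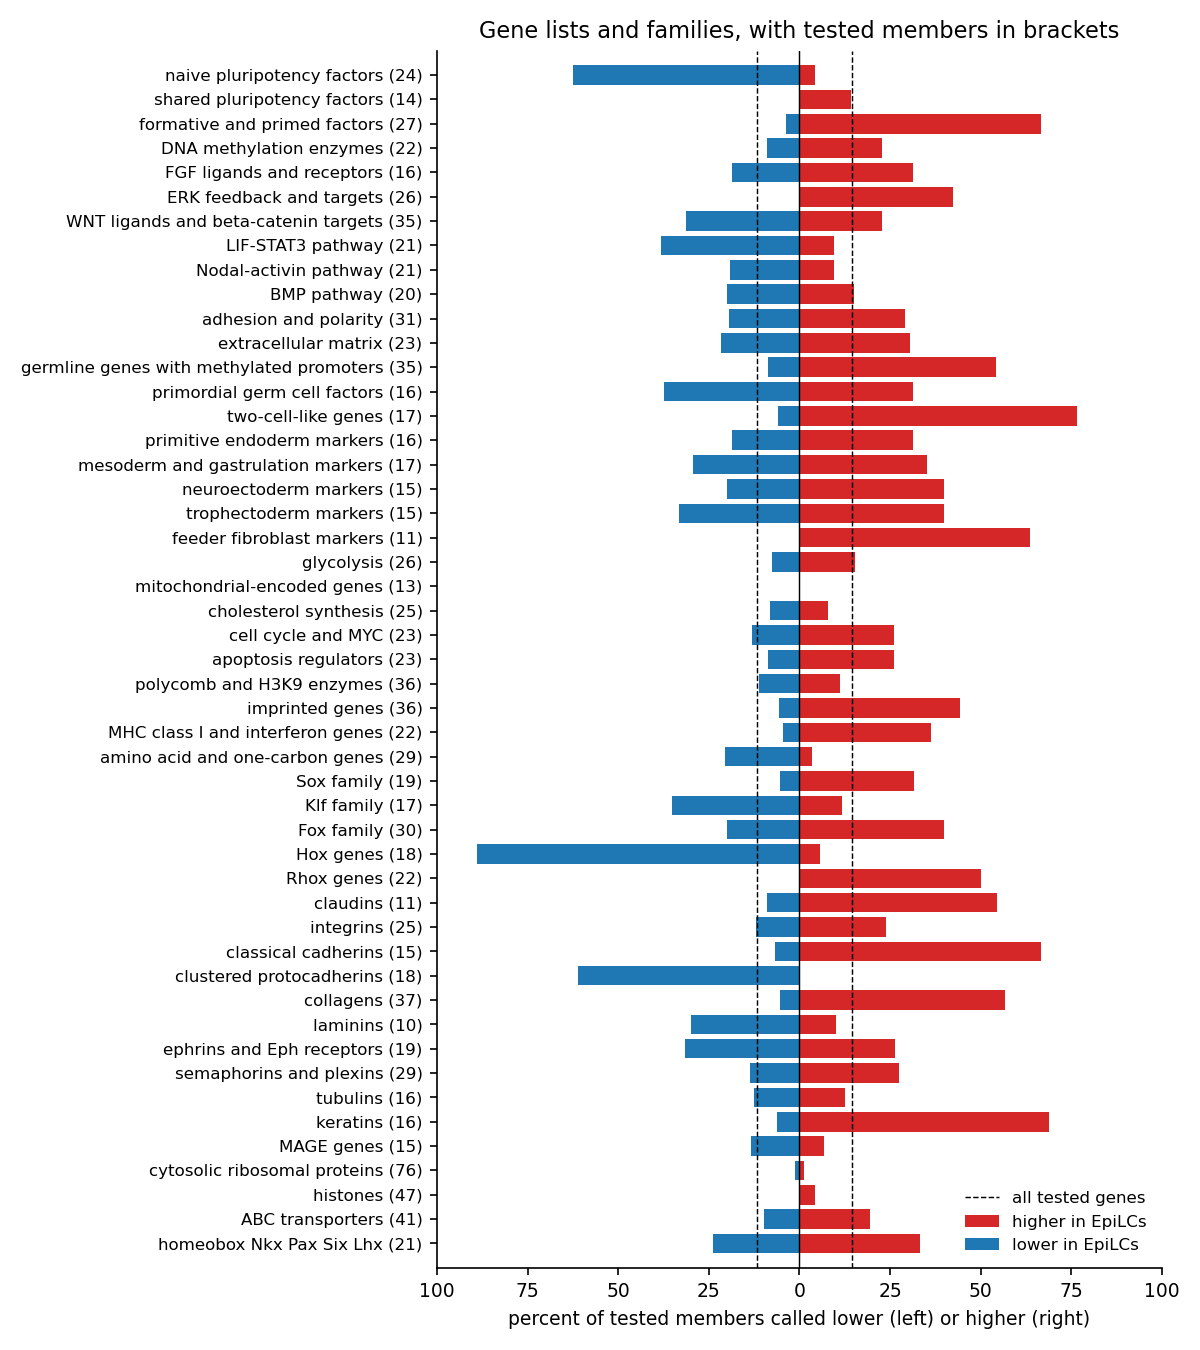
Percent of the tested members of each gene list or family called higher (red, to the right) or lower (blue, to the left) in EpiLCs, with the number tested in brackets, for lists with at least 10 tested, and dashed lines at the percents over all tested genes (14.4% and 11.9%). Hox genes (88.9% lower) and naive factors (62.5% lower) reach farthest left, and 2-cell-like genes (76.5% higher) and keratins (68.8% higher) farthest right.

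Germline genes kept silent by promoter methylation in somatic cells were often higher in EpiLCs, 19 of 35 tested, against 3 lower, with a median of 1.01. The list summed to 796 to 804 CPM in ESCs and 1181 to 1233 CPM in EpiLCs. Much of this gain was that of its member *Dnmt3l*, which was already expressed in ESCs, at the levels given above. Several of the genes that rose stayed at low levels. *Mael*, a factor of the piRNA pathway, was at 0.292, 0.307 and 0.503 CPM in ESCs and at 9.64, 8.78 and 10.2 CPM in EpiLCs (4.66, SE 0.29, adjusted p = 1.79e-10). *Tdrd1*, a scaffold of the same pathway, was at 0.109, 0.175 and 0.101 CPM and then at 3.52, 3.72 and 3.49 CPM (4.79, SE 0.34). *Taf7l*, a germ cell subunit of TFIID, was at 0.511, 0.482 and 0.436 CPM and then at 7.61, 3.85 and 5.28 CPM (3.54, SE 0.39). In all 3 the groups did not overlap. Genes of the meiotic synaptonemal complex moved alike, *Sycp1* from 1.63 ± 0.428 to 14.1 ± 1.06 CPM (3.12) and *Sycp3* from 2.52 ± 0.519 to 8.67 ± 0.167 CPM (1.78). *Dmrt1*, a sex determination factor, rose from 4.62 ± 0.785 to 53.3 ± 5.36 CPM (3.54). Against these, the cohesin subunit *Stag3* (-1.79), *Hormad1* (-1.32) and the RNA helicase *Mov10* (-1.22) fell, and *Dazl* stood at 11.1 ± 1.67 and 6.37 ± 0.138 CPM (-0.79, under the fold limit).

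The E-box CACGTG, the site of MGA and MAX, which with PRC1.6 are known to silence germline genes in ESCs, was in the promoters of 15 of 31 genes of this list with an entry. That is 48.4%, against 8.09% of all genes. It reads the same on both strands. By call, it was in 10 of 16 genes that rose, 2 of 3 that fell and 3 of 12 that were not called. The promoters of *Mael* (chr1:166238695-166238994, reverse strand), *Taf7l* (chrX:134476441-134476740, reverse strand) and *Tdrd1* (chr19:56825959-56826258, forward strand) are shown because these genes rose most clearly from near 0, with the E-box in capitals.
Mael: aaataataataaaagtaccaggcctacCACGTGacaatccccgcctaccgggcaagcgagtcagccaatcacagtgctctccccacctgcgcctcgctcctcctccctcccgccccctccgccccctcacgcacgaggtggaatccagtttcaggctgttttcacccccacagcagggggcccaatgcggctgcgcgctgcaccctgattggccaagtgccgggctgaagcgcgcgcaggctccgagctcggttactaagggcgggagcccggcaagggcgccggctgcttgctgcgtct
Taf7l: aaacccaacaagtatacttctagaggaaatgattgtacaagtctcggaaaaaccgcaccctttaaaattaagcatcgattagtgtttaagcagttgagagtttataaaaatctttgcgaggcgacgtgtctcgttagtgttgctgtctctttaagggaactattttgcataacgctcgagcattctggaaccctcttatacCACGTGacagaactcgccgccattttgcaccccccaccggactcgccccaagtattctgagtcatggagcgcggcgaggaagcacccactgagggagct
Tdrd1: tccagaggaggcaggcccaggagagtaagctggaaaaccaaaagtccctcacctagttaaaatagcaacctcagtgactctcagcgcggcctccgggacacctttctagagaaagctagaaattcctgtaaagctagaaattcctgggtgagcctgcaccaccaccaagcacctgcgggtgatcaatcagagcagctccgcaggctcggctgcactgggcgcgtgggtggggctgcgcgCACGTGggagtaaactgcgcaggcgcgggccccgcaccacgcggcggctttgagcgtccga

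Genes known from the 2-cell embryo were mostly higher, 13 of 17 tested, with 1 lower and a median of 2.98. Their summed level was lower, at 198 to 212 CPM in ESCs and 132 to 165 CPM in EpiLCs. *Zscan4c* was at 1.06, 0.701 and 0.838 CPM and then at 7.12, 9.64 and 11.0 CPM (3.41, SE 0.38), and *Zscan4d* rose by 3.31. The *Zscan4* genes are near-identical copies, so the share of reads given to each is uncertain. *Calcoco2* of the same list fell from 136 ± 9.40 to 47.2 ± 7.97 CPM (-1.53). The Rhox genes, homeobox genes of the X chromosome, were at 11.2 to 11.6 CPM in sum in ESCs and at 152 to 176 CPM in EpiLCs. Of 22 tested, 11 were higher and 11 were not called (7 higher when the 6 libraries were fitted alone), and several of them are also close copies.

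Imprinted genes, which are expressed from 1 parental allele, rose more often than they fell, 16 against 2 of 36 tested, with a median of 0.49. *H19*, a long non-coding RNA, had 2, 2 and 6 counts in ESCs and 3484, 3113 and 3303 in EpiLCs (9.85, SE 0.37, adjusted p = 1.72e-13). *Peg10*, derived from a retrotransposon, was at 23.7, 27.4 and 21.8 CPM and then at 408, 600 and 541 CPM (4.41, SE 0.38), and *Peg3* at 153, 159 and 174 CPM and then at 716, 823 and 785 CPM (2.26, SE 0.14). For these the groups were apart. *Cdkn1c*, a cell cycle inhibitor, rose from 2.61 ± 0.966 to 70.2 ± 9.95 CPM (4.75). *Plagl1*, a zinc finger factor, was at 187, 201 and 172 CPM and then at 6.89, 6.54 and 5.06 CPM (-4.92, SE 0.14, adjusted p = 5.00e-15). The other member that fell, *Kcnq1ot1*, had -1.08, and -0.97 without ESC replicate 2, when it was no longer called. Counts do not separate the alleles.

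Adhesion and matrix genes changed in both directions. Of 31 adhesion and polarity genes 9 were higher (29.0%) and 6 lower (19.35%), against 14.4% and 11.9% over all tested genes. E-cadherin, *Cdh1*, was at 541, 535 and 538 CPM and at 625, 622 and 622 CPM (0.21, under the fold limit), and P-cadherin, *Cdh3*, rose from 11.0, 12.9 and 12.4 CPM to 53.6, 51.8 and 44.5 CPM (2.05). *Podxl*, an anti-adhesive coat protein of apical surfaces, was at 24.8, 29.6 and 26.5 CPM and then at 163, 200 and 192 CPM (2.78, SE 0.18). *Epcam* rose by 2.16 and the tight junction gene *Cldn6* by 3.56, whereas *Cd9* (-1.80) and *Vim*, which encodes vimentin (-1.09), fell. Groups were apart for *Podxl*, *Epcam*, *Cldn6* and *Cd9*. Collagen genes were higher in 21 of 37 tested and lower in 2 (in 0 without ESC replicate 3, EpiLC replicate 1 or EpiLC replicate 3), and their summed level went from between 197 and 217 CPM to between 1014 and 1020 CPM, most of it *Col18a1*, which was at 118, 120 and 135 CPM and then at 873, 865 and 870 CPM (2.81, SE 0.08). The basement membrane linker *Nid1* went the other way, from 241 ± 11.1 to 24.1 ± 4.08 CPM (-3.32), as did *Spp1*, osteopontin (-2.35). *Fn1*, fibronectin, stood at 1363 ± 57.3 and 690 ± 39.9 CPM (-0.98), at the edge of the fold limit.

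Amino acid and one-carbon genes were lower in 6 of 29 tested (20.7%, against 11.9% of all tested genes) and higher in 1 (3.45%, against 14.4%), with a median of -0.20. *Tdh*, threonine dehydrogenase, on which mouse ESCs depend, was at 749, 760 and 738 CPM and then at 108, 100 and 103 CPM (-2.85, SE 0.08, adjusted p = 2.17e-15). *Asns*, asparagine synthetase, was at 967, 999 and 961 CPM and then at 146, 158 and 143 CPM (-2.71, SE 0.14). No EpiLC value came near an ESC value. *Nnmt*, which consumes the methyl donor SAM, fell from 257, 203 and 314 counts to 0, 6 and 0 (-7.00, SE 0.58), and *Ass1* (-1.64) and *Slc1a5* (-1.47) fell too. The transporter *Slc7a7* rose by 1.85. Outside the list, the branched-chain transaminase *Bcat1* was at 932 ± 52.8 and 176 ± 5.16 CPM (-2.41), the creatine kinase *Ckb* at 564 ± 22.9 and 47.4 ± 8.63 CPM (-3.57), and the amino acid carrier *Slc38a2* at 165 ± 5.14 and 1129 ± 105 CPM (2.78). These 3 are among the genes with the largest gain or loss of CPM, as are *Odc1*, the first enzyme of polyamine synthesis (1.21), and *Apoe* (-1.71). In glycolysis 20 of 26 tested identifiers were not called. *Slc2a1*, a glucose transporter, rose by 1.37 and *Pfkp*, a phosphofructokinase, fell by 1.37.

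Cell cycle and death genes changed in part. Of 23 cell cycle and MYC genes 6 were higher (26.1%) and 3 lower (13.0%), against 14.4% and 11.9% over all tested genes. *Cdkn1a*, the p53 target p21, was at 155, 145 and 171 CPM and then at 54.0, 39.6 and 41.6 CPM (-1.80, SE 0.14), while *Mycn* rose from 74.8 ± 1.08 to 202 ± 4.79 CPM (1.43) and *Ccnd2* from 1.81 ± 0.407 to 20.6 ± 3.63 CPM (3.50). Among 23 apoptosis regulators 6 were higher (26.1%) and 2 lower (8.7%). Of the 6, 5 encode BH3-only proteins, the triggers of the mitochondrial death pathway. *Bcl2l11*, which encodes BIM, was at 9.96, 9.64 and 8.95 CPM and then at 62.4, 75.6 and 66.7 CPM (2.84, SE 0.12, adjusted p = 1.06e-12). *Pmaip1* rose by 2.01, *Bmf* by 2.13, *Bbc3* by 1.24 and *Bik*, from a level near 0, by 4.03. The sixth, *Mcl1*, which restrains them, rose from 277 ± 9.49 to 719 ± 83.5 CPM (1.38). Of the other BH3-only genes, *Hrk* (-1.87) and *Bad* (-1.15) fell. The BH3-only gene *Bid* was not called, nor were *Bcl2l1*, *Bax* and *Bak1*.

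Hox genes were lower in 16 of 18 tested, with a median of -3.53, or -2.55 with genes at 0 in EpiLCs set to the bound that 3 counts in a library give. They were at low levels throughout, at 34.1 to 38.4 CPM in sum in ESCs and 4.11 to 5.59 CPM in EpiLCs. *Hoxc13* was at 6.75, 7.85 and 7.64 CPM and then at 0.0765, 0.362 and 0.110 CPM, and *Hoxd9* went from 110, 100 and 108 counts to 0, 0 and 3, a ratio of 111 between groups (95% counting interval 37.6 to 541). The 1 that rose, *Hoxb1*, was no longer called without ESC replicate 1, ESC replicate 2 or EpiLC replicate 1 (2.40, 2.47 and 2.48 in turn, against 2.82). Clustered protocadherins, adhesion genes of neurons, were lower in 11 of 18 tested, and 7 were not called. The 18 tested are all of the gamma cluster, whose transcripts share their last exons, so reads may be split between them arbitrarily. Keratins were higher in 11 of 16 tested and lower in 1, with *Krt18* rising by 2.36 and *Krt8* at 25.8 ± 0.928 and 21.6 ± 7.02 CPM.

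Of the genes silent in 1 group, 28 had at most 3 counts in each ESC library and at least 100 in each EpiLC library, and 5 the reverse. *Car4*, a carbonic anhydrase, went from 0, 1 and 0 counts to 2446, 2784 and 2474, a ratio of 7361 (95% counting interval 1321 to 290800). *Gbp2b* had 0 counts in all ESC libraries and 245, 311 and 215 in EpiLCs, at least 69.7-fold higher, and *Gbp3*, another interferon-inducible GTPase beside it, went from 3 counts in all to 1077, a ratio of 343 (95% counting interval 117 to 1666). Both were apart in every library. Of 22 MHC class I and interferon genes tested, a list without the GBP genes, 8 were higher and 1 lower, with a median of 0.20. The transcription factor *Irf1* rose from 48.4 ± 3.75 to 208 ± 28.9 CPM (2.10), *Oasl2* from 0.144 ± 0.106 to 31.9 ± 4.31 CPM (7.70) and the peptide transporter *Tap1* from 1.19 ± 0.0795 to 7.35 ± 1.29 CPM (2.63), while *Irf9* fell by 2.30.

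Markers of other cell types were measured as a check of the labels. ESCs expressed the naive markers and EpiLCs the formative ones, as given above. Markers of primitive endoderm were higher for 5 and lower for 3 of 16 tested, of mesoderm for 6 and 5 of 17, of neuroectoderm for 6 and 3 of 15 (5 lower without EpiLC replicate 1) and of trophectoderm for 6 and 5 of 15. In the same order, the shares higher and lower were 31.25% and 18.75%, 35.3% and 29.4%, 40.0% and 20.0%, and 40.0% and 33.3%. Over all tested genes they were 14.4% and 11.9%. The summed level of the primitive endoderm list was 340 to 357 CPM in ESCs and 318 to 337 CPM in EpiLCs, and that of the mesoderm list 90.3 to 94.8 CPM and 31.0 to 38.0 CPM. For neuroectoderm it was 168 to 185 CPM and 188 to 244 CPM, and for trophectoderm 132 to 140 CPM and 74.8 to 93.7 CPM. These sums hold genes at moderate levels beside several defining markers at low levels. Among the latter, *Gata6* was at 0.314 ± 0.234 and 0.417 ± 0.227 CPM, *Mixl1* at 1.09 ± 0.533 and 0.575 ± 0.378 CPM and *Cdx2* at 2.03 ± 0.541 and 0.583 ± 0.206 CPM. The mesoderm marker *T* was expressed in ESCs, at 14.8 ± 0.317 CPM, and fell to 0.248 ± 0.192 CPM in EpiLCs (-5.92). Fold changes of the trophectoderm list ran from -4.04 to 6.80. *Dll1*, a Notch ligand, was at 0.0365, 0.0877 and 0.201 CPM in ESCs and 90.0, 72.9 and 64.8 CPM in EpiLCs (9.35, SE 0.40). Feeder fibroblast markers were higher for 7 of 11 tested, and 4 were not called. Their summed level was 11.5 to 13.7 CPM in ESCs and 34.4 to 35.3 CPM in EpiLCs, with *Prrx1* and *S100a4* at 0 counts in all 6 libraries, *Col3a1* at 0 counts in ESCs and 0.786 ± 0.356 CPM in EpiLCs, and *Dcn* at 0 counts in ESCs and 5.83 ± 0.993 CPM in EpiLCs. The part of such cells in the collagen and other matrix results was not tested.

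Levels in the later samples are given as means of 3 libraries on days 2, 4 and 6 of PGCLC induction, with no test. These cells were sorted as Stella-eGFP+, with the transgenes induced by doxycycline and in another medium. Their levels thus do not show whether a change in EpiLCs would last by itself. *Esrrb* stood at 620, 515 and 410 CPM, against 590 CPM in ESCs, and *Zfp42* at 330, 286 and 265 CPM. *Tfcp2l1*, at 131, 135 and 170 CPM, and *Tbx3*, at 17.5, 37.7 and 74.7 CPM, remained under their ESC levels. *Asns* was at 1363, 1093 and 678 CPM, and *Tdh* at 524, 346 and 173 CPM. Of the genes higher in EpiLCs, *Egr1* was at 18.5, 4.55 and 3.05 CPM and *Lef1* at 21.2, 20.1 and 11.8 CPM, far below EpiLCs. *Egr1* was still above its ESC mean of 0.347 CPM, whereas *Lef1* was below its ESC mean. *Dusp6* (77.3, 59.3 and 34.1 CPM) and *Bcl2l11* (72.1, 60.5 and 47.1 CPM) were above ESCs as well. *Mael* was at 4.78, 8.86 and 14.8 CPM and *Sycp1* at 10.1, 16.2 and 28.0 CPM. Without D6PGCLC replicate 1, left out here after its values were seen, the day 6 means were 415 CPM for *Esrrb*, 272 CPM for *Zfp42*, 169 CPM for *Tfcp2l1* and 74.2 CPM for *Tbx3*. They were 647 CPM for *Asns*, 175 CPM for *Tdh*, 3.58 CPM for *Egr1* and 13.5 CPM for *Lef1*. For *Dusp6*, *Bcl2l11*, *Mael* and *Sycp1* they were 33.5, 49.7, 13.8 and 27.0 CPM.

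**Figure D4:**
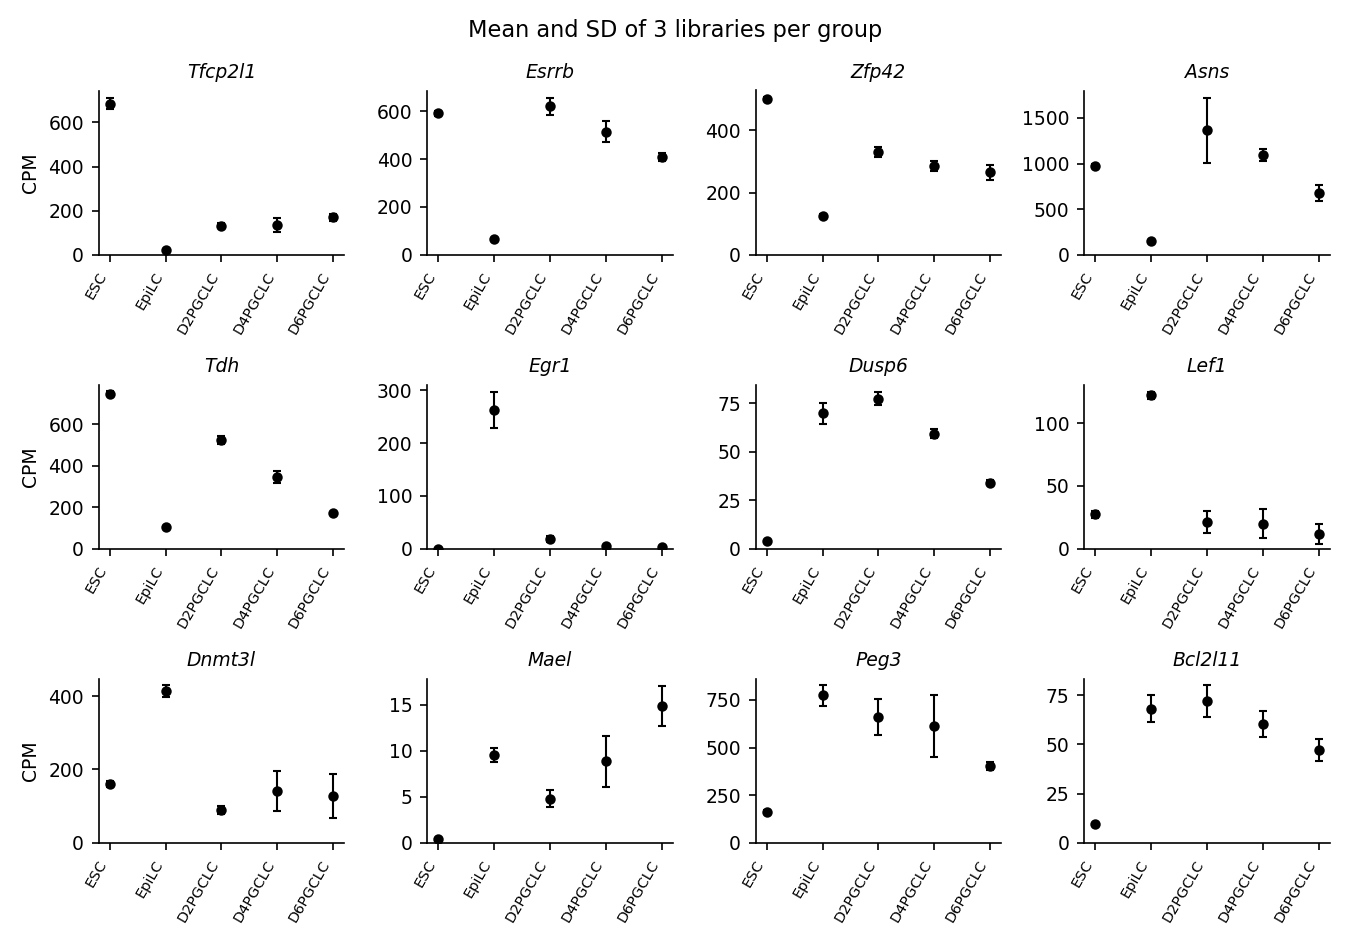
Mean CPM with its SD over 3 libraries (points and bars) of 12 genes in ESCs, EpiLCs and D2, D4 and D6 PGCLCs, each on its own linear axis from 0. *Esrrb* and *Asns* are lowest in EpiLCs, *Egr1* and *Lef1* are highest there, and *Bcl2l11* stays above its ESC level of 9.52 CPM in all later groups.

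Among the autosomes and the X, chromosome 8 had the lowest and the X the highest median. The median log2 fold change was -0.29 over the 957 tested genes of chromosome 8, of which 12.2% were higher and 15.1% lower, and 0.28 over the 684 of the X chromosome, of which 25.4% were higher and 8.77% lower. Over genes with a mean of at least 1 CPM, the median deviation of chromosome 8 from the mean of the 6 libraries was 0.15, 0.13 and 0.16 in the ESC libraries and -0.12, -0.15 and -0.16 in the EpiLC libraries. It was between 0.01 and 0.16 in the 9 PGCLC libraries. On the X chromosome it was -0.11, -0.08 and -0.08 in ESCs and 0.07, 0.11 and 0.10 in EpiLCs. The difference of group means was -0.29 on chromosome 8 and 0.19 on the X, against -0.12 to 0.09 on the other 18 autosomes. The 21 tested mitochondrial genes had a median log2 fold change of -0.27 and the 13 of the Y chromosome 0.18. Of the genes named above, *Zfp42*, *Klf2*, *Dusp4*, *Fgfr1*, *Cdh1* and *Cdh3* lie on chromosome 8, and its part in their values was not tested. *Xist*, which silences the inactive X chromosome, was at 0.584, 0.438 and 0 CPM in ESCs and 7.46, 12.3 and 10.6 CPM in EpiLCs (4.91, SE 0.71, adjusted p = 1.01e-05), and its antisense partner overlaps it.

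**Figure D5:**
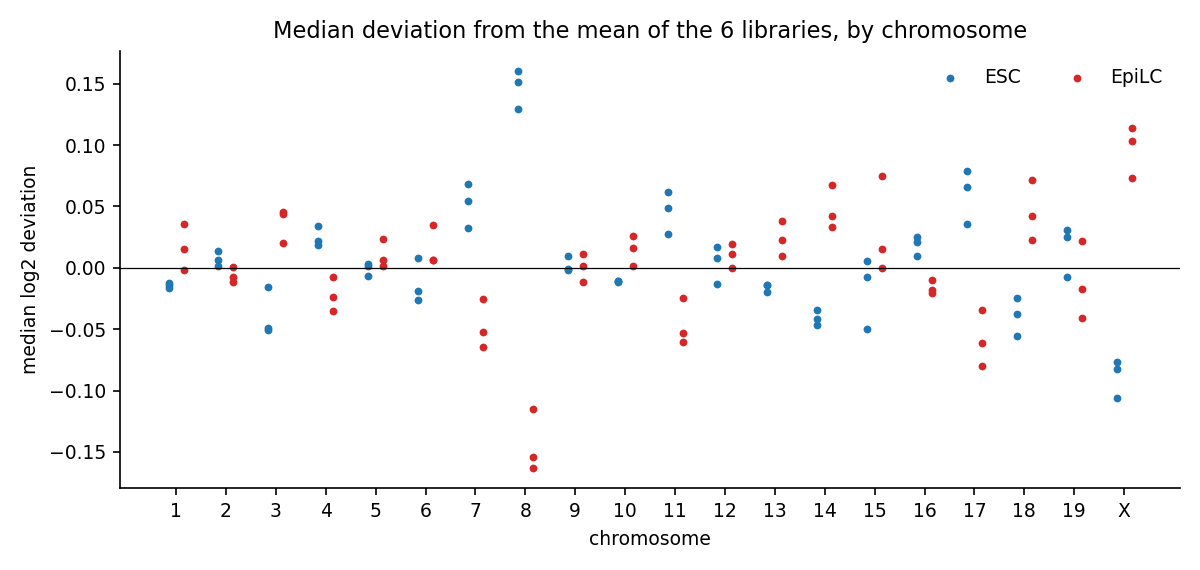
Median log2 deviation (y axis) of the genes of each chromosome (x axis) from their mean over the 6 libraries, for each ESC library (blue) and EpiLC library (red). Chromosome 8 lies at 0.13 to 0.16 in ESCs and at -0.16 to -0.12 in EpiLCs, and the X chromosome at -0.11 to -0.08 and at 0.07 to 0.11.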

How the data were processed

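RNA-seq was analysed in 3 ESC and 3 EpiLC libraries. After TRIzol extraction, the authors made stranded libraries (NEBNext Ultra II Directional) and deposited raw counts per ENSEMBL gene, not normalized. The submitters' processing notes name Trim Galore, FastQC, STAR and mm10. The counting tool, the annotation release, the strand setting and the treatment of reads matching several genes are not given in the sources used here. Such choices move counts of overlapping genes and of near-identical copies. Symbols, coordinates and exon lengths came from GENCODE M21.

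Groups followed the labels. EpiLCs were tested against ESCs with edgeR 4.0.16 in R 4.3.3, on TMM-scaled counts after filterByExpr (minimum 10 counts). The quasi-likelihood model had 1 coefficient for each of the 5 groups and used all 15 samples, and p-values were adjusted by Benjamini-Hochberg over 18090 genes. A call needed an adjusted p under 0.05 and a fold change beyond 1 or -1 on the log2 scale. The methods of the study name DESeq2, an alternative here (1.42.0). The code was tested on simulated counts. Other alternatives were DESeq2's size factors, library size alone, no filter, a replicate block, a fit of the 6 samples and no fold-change limit. Each ESC and EpiLC library was also left out in turn, as was D6PGCLC replicate 1. The other PGCLC libraries were not left out.

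Depth was 22555021 to 32594579 counts per library, and 3 counts equal at most 0.131 CPM. A fold against a group at 0 is a lower bound from 3 counts in its shallowest library. Ratios with 95% intervals are exact binomial intervals of summed counts and cover counting error only. List medians with such genes at their bound differed for Hox genes and for classical cadherins (2.36 and 2.33). Promoter sequences are from RefSeq (GRCm38.p6). The gene lists and members were chosen with earlier results of these data known. Genes named were members of the lists and families, the 15 highest and 15 lowest fold changes among called genes whose groups were apart and whose mean reached 100 counts, the 10 largest gains and losses of CPM, and the 10 genes with most counts among those silent in 1 group.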

Additional observations from a re-analysis of the deposited data

How the results depend on the processing

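No gene called in either direction was called in the opposite one under any of the alternatives run. The 2603 genes higher and 2145 lower became 2715 and 2116 with DESeq2 (2580 and 2066 of them shared), 2677 and 2064 with DESeq2's size factors, 2403 and 2448 with library size alone, which moved the median of all genes by -0.10, 2800 and 2327 without the filter on low counts, and 2433 and 2132 with only the 6 samples. With each ESC or EpiLC library left out, they were 2458 to 2549 and 2028 to 2068. Without the fold-change limit they were 4762 and 4733. With at most 10 counts in the silent group in place of 3, 64 genes were silent in ESCs and 20 in EpiLCs. The replicate numbers are not stated to mark samples made together, and the deviations of same-numbered samples correlated at 0.05, -0.01 and 0.01. With the replicate block, 2580 genes were higher and 2146 lower. *Fn1* passed the fold limit with library size alone (-1.08) and without ESC replicate 1 or EpiLC replicate 2 (-1.02 and -1.01). The *Egr2* call was lost with DESeq2. Having 3 libraries a group and bulk RNA limits what low genes, such as Hox genes and the low members of the germline list, can show.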

Other observations

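By transcript type, genes outside the protein-coding class were lower in EpiLCs more often than they were higher. Antisense genes had a median log2 fold change of -0.36, with 36 of 418 tested higher and 85 lower, and sense-intronic transcripts of -0.71, with 7 of 78 higher and 12 lower. For the 14768 protein-coding genes the median was 0.02, with 15.8% higher and 11.5% lower. Processed pseudogenes had a median of 0.13, with 45 of 913 called in each direction. Across quintiles of exon GC content from low to high the median went from 0.08 to -0.16, and the percent called lower from 7.55% to 15.9%, while the percent called higher was between 13.6% and 15.2%. Across quintiles of exon length from short to long the percent called higher went from 10.2% to 17.2%.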
